A study of Mus musculus with 8 samples.

Results

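The genes described here are the fibroblast growth factors (FGFs), their receptors and the feedback genes of the ERK kinase cascade that FGF receptors switch on. They were chosen by symbol from a table of 22558 genes: every Fgf gene with a number, Fgfr1 to Fgfr4, Fgfrl1, the Sprouty (Spry) and Spred inhibitors, the ERK phosphatases Dusp4 and Dusp6, and the ETS factors Etv4 and Etv5. This rule gave 38 genes, of which 18 encode secreted ligands, 4 encode intracellular FGF homologous factors, 5 encode receptors and 11 encode feedback inhibitors or ETS factors. Mouse embryonic stem cells, labelled R1 and R1/E, were grown as embryoid bodies, which are floating aggregates that differentiate into many cell types. One arm is labelled control, and in the other doxycycline induced overexpression of Oct6, the POU domain factor encoded by Pou3f1. RNA was sequenced once per arm at day 2, day 4 and day 6 (6 libraries). Chromatin bound by Oct6 was sequenced once in Oct6-overexpressing cells, beside an input library. Its stage is labelled neural differentiation day 4, while the name of the authors' peak list carries EB (embryoid body) and D4. The culture behind the binding data is therefore uncertain. One protocol line speaks of doxycycline for 6 days in control and inducible cells, while the library titles name it in the induced arm alone, and neither a shared line or clone nor the promoter of the transgene is given, so effects of doxycycline or line cannot be told apart from those of Oct6. The growth protocol is serum-free, while the RNA library titles carry an unexplained prefix, fbs, so the medium is uncertain too.

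As background, FGF ligands bind receptor tyrosine kinases with heparan sulphate as a cofactor, and the receptors signal through Ras, Raf and MEK to ERK. ERK activity induces its own inhibitors (Sprouty, Spred and Dusp proteins) and the ETS factors, so transcripts of these genes are commonly used as readouts of the pathway. In early mouse embryos Fgf4 is made by pluripotent cells, Fgf5 marks the epiblast before gastrulation, and Fgf8 is made in the primitive streak and later in brain signalling centres. FGF homologous factors are not secreted and bind voltage-gated sodium channels in neurons.

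At days 2, 4 and 6 Pou3f1 stood at 64.3, 10.1 and 4.76 FPKM in control cells and at 312, 222 and 86.8 FPKM with induction, in the direction of the labels; transgene and endogenous transcripts are not separated. FPKM is the number of sequenced fragments per transcript length and library size. From the step size of weak values the libraries held an estimated 22.8 to 49.2 M fragments, at which 1 fragment in a transcript of 2 kb is worth 0.0102 to 0.022 FPKM. All 8 pluripotency markers reached 1 FPKM in every library. Their summed level at days 2, 4 and 6 was 3991, 1764 and 429 FPKM in control. In induced libraries it was 1798, 2381 and 874 FPKM. The summed levels of other cell types also differed between the arms. Over the 3 control libraries and the 3 induced libraries, respectively, the 9 visceral endoderm markers summed to 38.3 to 216 and 8.47 to 16.0 FPKM, the 7 neural progenitor markers to 5.09 to 18.5 and 36.9 to 90.6, and the 6 neuron markers to 31.7 to 82.3 and 128 to 154. At day 6 the 7 cardiac markers summed to 212 FPKM in control and to 11.6 with induction. The 8 fibroblast markers were included because stem cells were kept on feeders. At days 2, 4 and 6 they summed to 11.9, 10.5 and 118 FPKM in control. With induction the sums were 97.5, 43.2 and 43.1 FPKM. The 6 nascent mesoderm markers summed to 6.55, 363 and 78.3 FPKM in control and 10.01, 238 and 89.2 in induced libraries on the 3 days. Mesp1, Msgn1, Neurog2 and Nhlh1 were listed at 0 in some library. The part of these cell types in the results below was not tested, and in such bulk libraries fewer cells of a type and less RNA per cell cannot be told apart.

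A gene was counted as changed between 2 libraries when it reached 1 FPKM in either of them and its log2(FPKM + 1) values differed by at least 1. This is 2-fold on that scale, to which 2-fold refers below. The folds quoted for Fgf8 and Fgf15 are ratios of plain FPKM, which can pass 2 without a call. Between the arms this was so for Fgf3, Fgf4, Fgf13, Fgf16 and Etv4. Of the 38 genes 27 reached 1 FPKM in at least 1 library. The other 11 (Fgf1, Fgf2, Fgf6, Fgf7, Fgf9, Fgf12, Fgf14, Fgf20, Fgf21, Fgf22 and Fgf23) stayed at or below 0.551 FPKM. At day 2, 1 gene of the 23 counted (Fgf11) was higher in induced cells and 4 were lower, where 9.72% of all counted genes were higher and 1.83% lower. On day 4, 2 of 24 (Fgf11 and Spred3) were higher and 4 lower, against 6.09% and 2.11% of all genes. At day 6 there was 1 higher (Fgf11) and none lower of 25, against 3.37% and 2.1%. The background itself depends on scaling: at day 2 the median difference over all counted genes was 0.17 as deposited, 0.03 once libraries were scaled by their median ratio and -0.05 with quantile normalisation, and higher genes made up 84.2%, 75.2% and 61.1% of the changed ones. A gene that passes the minimum only in the library where it is high has to differ, so the counts of weak genes support no direction. With 1 library per arm and day no difference within a day has a replicate check.

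The 8 lower calls were all secreted ligands, Fgf4, Fgf15, Fgf17 and Fgf18 at day 2 and Fgf3, Fgf5, Fgf8 and Fgf10 at day 4. Summed over the 18 ligands, control libraries held 137, 218 and 84.5 FPKM on the 3 days and induced libraries 52.6, 102 and 91.4 FPKM. At day 2 Fgf4 was the most abundant ligand in both arms, with 45.0% of the control sum and 46.9% of the induced sum. At day 4 Fgf8 led with 46.7% and 45.1%, followed by Fgf5 with 40.4% and 32.0%. At day 6 the order differed between the arms: Fgf5 (28.6%) and Fgf8 (24.6%) led in control, and Fgf15 (25.9%) and Fgf8 (20.1%) led in induced cells. The induced sum was lower than the control sum at days 2 and 4, while Fgf8 and Fgf5 led in both arms at day 4.

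**Figure D1:**
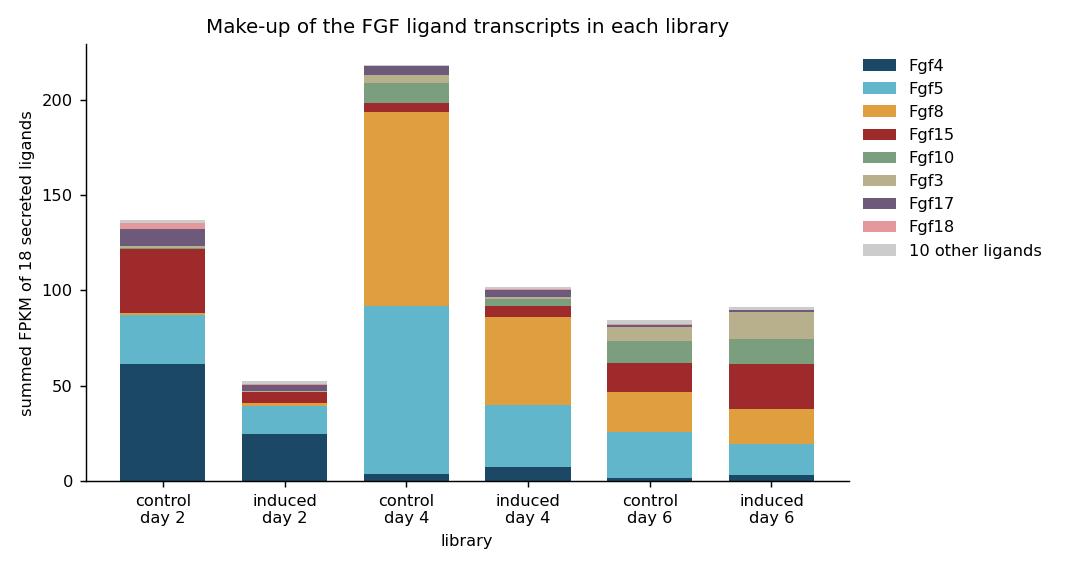
Stacked bars give the FPKM of each FGF ligand in each of the 6 libraries, and bar height is the sum over 18 secreted ligands. The control bars are 137, 218 and 84.5 FPKM high and the induced bars 52.6, 102 and 91.4 FPKM.

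Fgf4, the FGF of pluripotent cells, was at 61.6, 3.71 and 1.68 FPKM in control cells at days 2, 4 and 6 and at 24.7, 7.53 and 3.53 FPKM in induced cells. Its level was thus lower in the induced library at day 2 and higher at days 4 and 6, with differences of log2(FPKM + 1) of -1.29, 0.86 and 0.76. Fgf5, the epiblast ligand, was at 25.4, 88.1 and 24.1 FPKM in control and at 14.9, 32.6 and 15.9 FPKM in induced cells. It was lower in the induced library on each day (-0.73, -1.41 and -0.57) and peaked at day 4 in both arms. The levels of the arms overlapped across days, since the induced library of day 4 exceeded the control libraries of days 2 and 6. Fgf6, the remaining ligand of this subfamily, was listed at 0 in 5 libraries.

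Among the ligands of the FGF8 subfamily, Fgf8 was at 1.37, 102 and 20.8 FPKM in control and 1.27, 46.0 and 18.4 FPKM in induced cells. Both arms had their highest Fgf8 level at day 4, where the induced library was 2.21-fold lower. The differences at days 2 and 6 were -0.06 and -0.17. Fgf17, a related ligand of the midbrain-hindbrain boundary, was at 8.62, 4.72 and 1.11 FPKM in control and 3.05, 3.49 and 1.07 FPKM in induced cells. Its gap between the arms was widest at day 2 (-1.25), and at day 6 the levels were nearly equal (-0.03). Fgf18 was at 3.44, 0.191 and 0.537 FPKM in control and 0.616, 0.358 and 0.105 FPKM in induced cells, so that only the control library of day 2 exceeded 1 FPKM.

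Fgf15, an endocrine FGF that is also made in the embryonic neural tube, was at 33.4, 4.26 and 15.1 FPKM in control cells. In induced cells it was at 5.81, 5.56 and 23.7 FPKM. The induced library was 5.75-fold lower at day 2 and 1.57-fold higher at day 6. Control cells had a trough at day 4, whereas the induced libraries of days 2 and 4 were alike and that of day 6 was higher. The other endocrine members, Fgf21 and Fgf23, stayed at or below 0.155 FPKM in all libraries.

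Fgf3, a ligand of the early hindbrain and otic region, was at 1.13, 3.83 and 7.30 FPKM in control and at 0.3197, 1.19 and 14.4 FPKM in induced cells. Its level was lower in the induced library at days 2 and 4 (-0.69 and -1.14) and higher at day 6 (0.89). Fgf10, a mesenchymal ligand of limb and lung budding, was at 0.506, 10.9 and 11.8 FPKM in control and at 0.309, 3.87 and 12.9 FPKM in induced cells. The arms differed by -1.28 on day 4, and by 0.12 on day 6. Fgf16 reached 1.298 FPKM in the control library of day 6 and was at or below 0.382 in the other 5. The ligands Fgf1, Fgf2, Fgf7, Fgf9, Fgf20 and Fgf22 stayed below 1 FPKM throughout, and Fgf9 had its highest values in the induced libraries of days 4 and 6, at 0.351 and 0.504 FPKM.

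**Figure D2:**
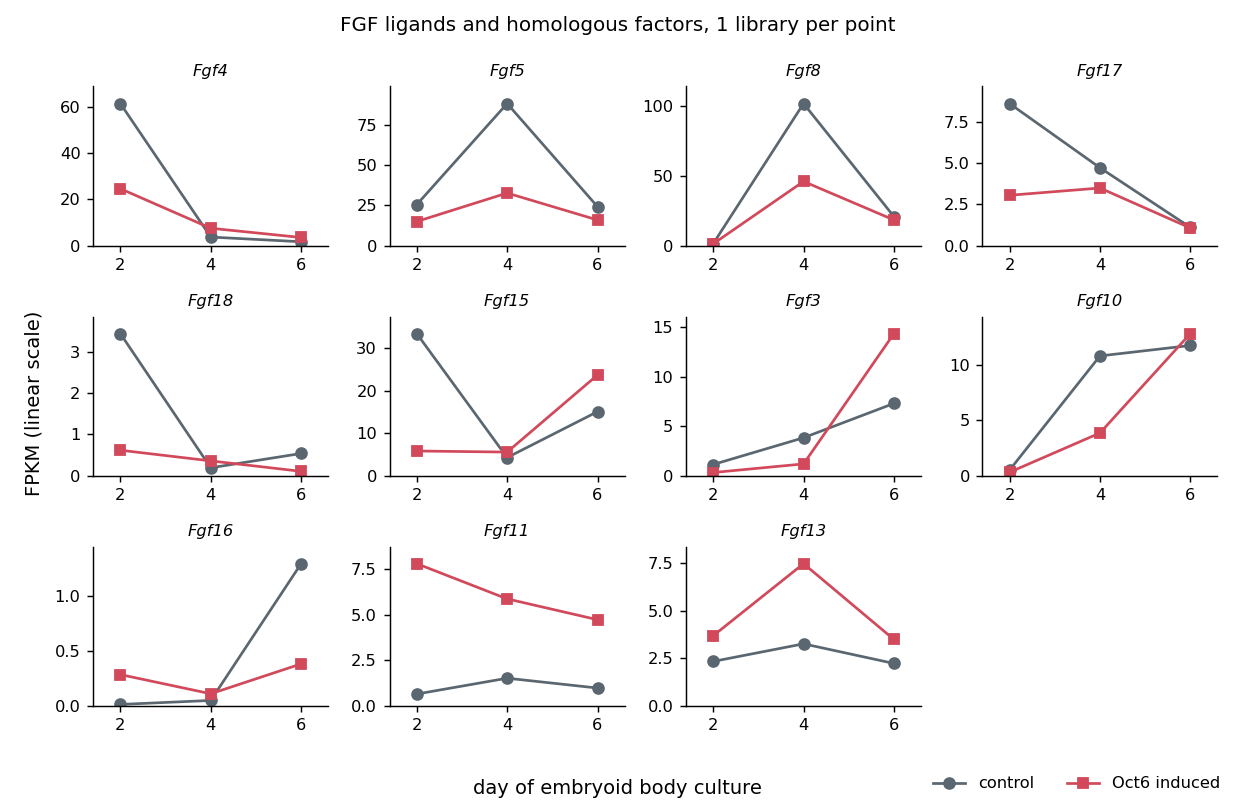
Each panel plots the FPKM of 1 ligand or FGF homologous factor against the day, with 1 library per point, control as grey circles and Oct6 induced as red squares. Fgf4, Fgf15, Fgf17 and Fgf18 differ most at day 2, Fgf5 and Fgf8 at day 4, and the induced Fgf11 and Fgf13 points lie above every control point.

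Of the 4 FGF homologous factors 2 reached 1 FPKM, and in both the arms did not overlap. Fgf11 was at 0.644, 1.51 and 0.974 FPKM in control cells over the 3 days and at 7.81, 5.88 and 4.73 FPKM in induced cells. Every induced library lay above every control library, and the differences were 2.42, 1.45 and 1.54. Fgf13, which also binds microtubules in growing axons, was at 2.33, 3.26 and 2.23 FPKM in control and at 3.69, 7.49 and 3.49 FPKM in induced cells. The differences were 0.49, 0.99 and 0.48, of which the first was 0.06 with quantile normalisation. Of all genes reaching 1 FPKM, 12.6% had every induced library above every control library and 2.38% the reverse, while among the 27 genes described here 2 did so, both homologous factors, and none the reverse. Fgf12 was separated in the same direction but at low levels, from 0.0131 to 0.102 FPKM in control and from 0.325 to 0.551 in induced cells. So was the secreted ligand Fgf22, from 0 to 0.188 FPKM in control and from 0.257 to 0.488 in induced cells. Fgf14 was at 0.121 to 0.415 FPKM with overlapping arms. Beside these values the summed neuron markers, given above, were also higher in each induced library.

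No receptor differed by 2-fold between the arms on any day. Fgfr1, the main FGF receptor of early embryonic cells, was at 21.4, 26.8 and 33.4 FPKM in control and 22.5, 25.1 and 34.0 FPKM in induced cells. The arms differed by 0.07, -0.09 and 0.03, the first of which became -0.09 and the last -0.04 under median ratio scaling and the first -0.03 with quantile normalisation, and both arms had their lowest level at day 2 and their highest at day 6. Fgfr1 made up 66.1% to 86.8% of the summed FPKM of the 4 kinase receptors, and that sum was 27.5, 30.9 and 50.4 over the control days and 27.8, 30.5 and 46.3 over the induced days. Thus the summed receptor level differed little between the arms on the days when the summed ligand level was lower in induced cells. Fgfr2, which prefers FGF7 and FGF10 in its epithelial splice form, was at 4.48, 2.20 and 10.2 FPKM in control and 3.34, 4.07 and 7.52 FPKM in induced cells. The values do not separate its splice forms. Fgfr3, a receptor of neural progenitors and cartilage, was at 0.847, 1.23 and 5.20 FPKM in control and 1.10, 0.964 and 3.74 FPKM in induced cells. Fgfr4 stayed between 0.316 and 1.71 FPKM. Fgfrl1, which lacks the kinase domain, was at 4.42, 5.57 and 12.3 FPKM in control and 4.78, 9.59 and 11.9 FPKM in induced cells, with a difference of 0.69 at day 4.

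The feedback genes differed less than the ligands, and 1 of the 11 passed 2-fold in FPKM + 1 on any day. In plain FPKM Etv4 also passed it, with a ratio of 2.07 at day 6. Spry1 was the only Sprouty gene that was lower in induced cells on all 3 days, with 12.6, 16.3 and 18.4 FPKM in control and 7.30, 11.1 and 13.3 FPKM in induced cells. The differences were -0.71, -0.51 and -0.44, and the arms overlapped across days. Spry2 went the other way, with 76.6, 49.97 and 42.4 FPKM in control and 98.4, 81.7 and 50.6 FPKM in induced cells. The differences were 0.36, 0.70 and 0.25, and each later day had a lower level in both arms. Spry4 was at 31.1, 8.29 and 3.83 FPKM in control and 18.8, 9.82 and 4.60 FPKM in induced cells. It was lower in the induced library at day 2 (-0.70) and slightly higher at days 4 and 6 (0.22 and 0.21), the same order of signs as for Fgf4. Spry3 stayed between 0.437 and 1.05 FPKM.

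The Spred proteins block the activation of Raf by Ras. Spred3 was at 6.79, 8.42 and 14.0 FPKM in control and at 11.1, 19.8 and 20.6 FPKM in induced cells. The induced library was higher on each day (0.64, 1.14 and 0.52) and passed 2-fold at day 4. Spred1 was at 31.0, 25.97 and 33.0 FPKM in control and 45.0, 39.2 and 31.2 FPKM in induced cells, higher at days 2 and 4 and level at day 6. Spred2 was at 20.0, 17.7 and 14.7 FPKM in control and 23.9, 20.9 and 16.2 FPKM in induced cells, with differences of 0.25, 0.22 and 0.13 that are close to the median of all genes.

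Dusp6, the phosphatase that removes ERK's activating phosphates in the cytoplasm, was at 48.3, 58.5 and 39.8 FPKM in control and 74.7, 86.1 and 42.6 FPKM in induced cells. Its differences of 0.62, 0.55 and 0.10 shrank to near 0 at day 6. Dusp4, the nuclear counterpart, was at 25.0, 47.9 and 29.8 FPKM in control and 38.8, 45.8 and 35.1 FPKM in induced cells. Etv4 was at 33.3, 16.1 and 8.56 FPKM in control and 29.1, 30.4 and 17.7 FPKM in induced cells, so that control was lower at day 4 than at day 2 while the induced libraries of these days were alike. Etv5 was at 123, 61.7 and 32.8 FPKM in control and 112, 71.8 and 40.5 FPKM in induced cells, lower on each later day in both arms. Etv4 differed by -0.19, 0.88 and 0.97 and Etv5 by -0.13, 0.21 and 0.29.

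**Figure D3:**
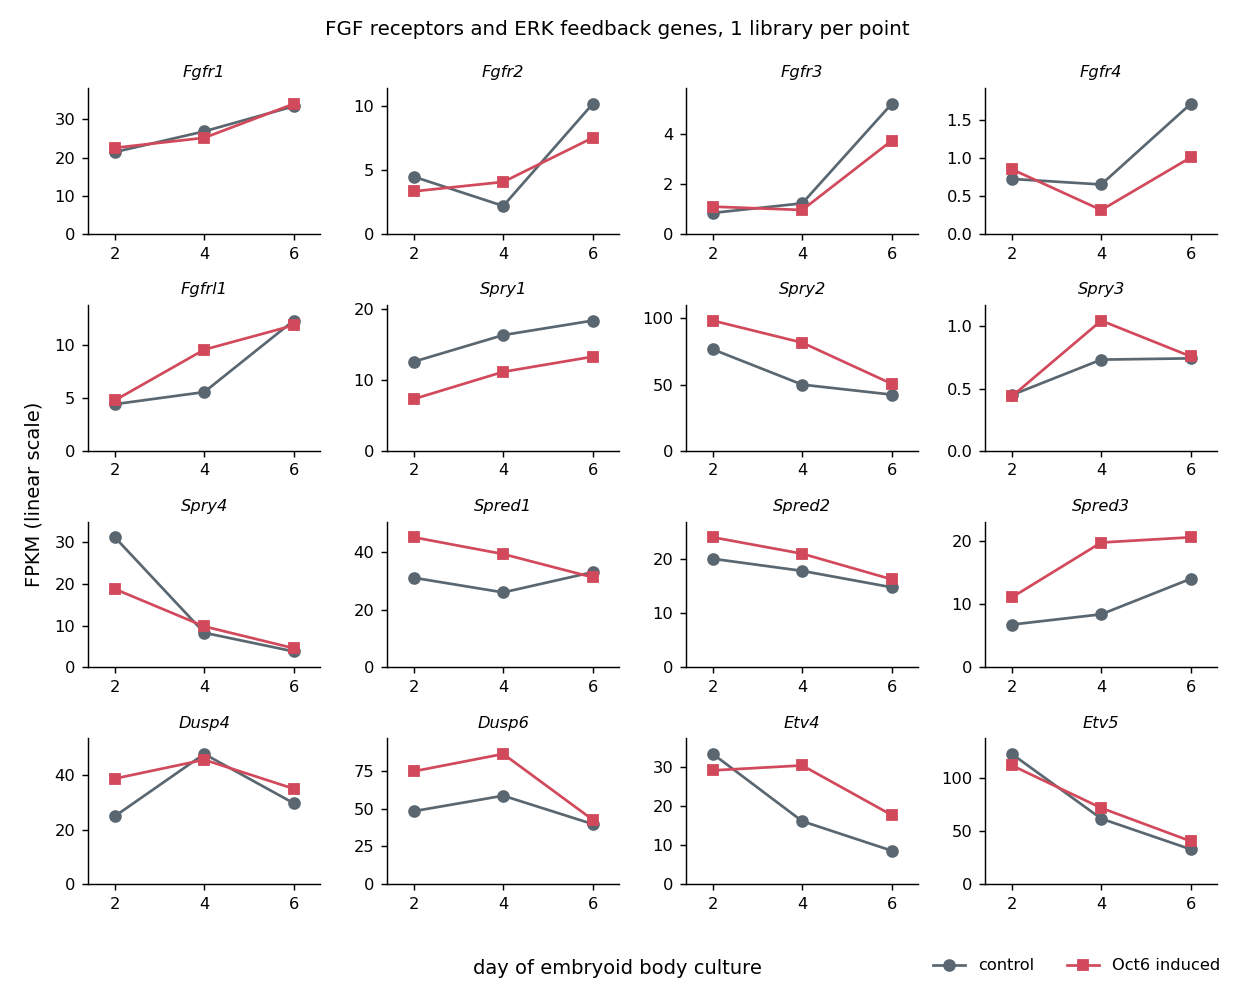
Each panel plots the FPKM of 1 receptor or feedback gene against the day, with 1 library per point, control as grey circles and Oct6 induced as red squares. The Fgfr1 lines lie close together, Spry1 lies lower and Spry2, Spred2, Spred3 and Dusp6 lie higher in induced cells on each day, and Spry4, Etv4 and Etv5 have lower control points on each later day.

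Across time, control cells had 4 of 24 counted genes at least 2-fold higher at day 4 than at day 2 (Fgf3, Fgf5, Fgf8 and Fgf10) and 5 lower (Fgf4, Fgf15, Fgf18, Spry4 and Etv4), where 9.63% of all counted genes were higher and 4.65% lower. From day 4 to day 6 in control, Fgf15, Fgf16, Fgfr2, Fgfr3 and Fgfrl1 were at least 2-fold higher and Fgf5, Fgf8 and Fgf17 lower, 5 and 3 of 25 against 6.15% and 2.97% of all genes. Induced cells had Fgf5, Fgf8 and Fgf10 higher and Fgf4 lower at day 4 than at day 2, 3 and 1 of 24 against 2.73% and 2.36%. From day 4 to day 6 they had Fgf3, Fgf10, Fgf15 and Fgfr3 higher and Fgf8 and Fgf17 lower, 4 and 2 of 25 against 2.98% and 2.1%. Etv4 lay at the threshold in control, with a difference of -1.005 that became -0.96 with quantile normalisation, where Fgf3 (day 2 to day 4) became 0.91 and Fgfrl1 (day 4 to day 6) 0.87. In control cells Fgf4, Spry4, Etv5 and Etv4 had differences of -4.55, -2.73, -1.87 and -1.84 from day 2 to day 6, and in induced cells these were -2.50, -1.82, -1.44 and -0.69. These comparisons use the same libraries as those between the arms and add no independent evidence to them.

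A difference common to the 3 days was tested with limma over 13661 genes, with day as a block and Benjamini-Hochberg adjustment. The spread in this fit is that of the arm difference between days, not between repeated cultures. None of the 27 genes tested here passed an adjusted p of 0.05, while 2 genes of the whole table (0.0146%) passed as higher and 1 (0.00732%) as lower. At an unadjusted p below 0.05, 5 of the 27 were higher and 2 lower, against 16.3% and 4.72% of all genes. Fgf11 had a mean difference of 1.80 ± 0.25 (SE, 3 days, higher on 3 of 3) and an adjusted p of 0.0963 in limma's test. For Spred3 the estimate was 0.77 ± 0.16 with an adjusted p of 0.144, for Fgf13 it was 0.65 ± 0.18 with an adjusted p of 0.168, and for Spry2 and Dusp6 it was 0.43 ± 0.12 and 0.42 ± 0.13, with adjusted p of 0.165 and 0.186. On the lower side Fgf5 had -0.90 ± 0.18 with an adjusted p of 0.141 and Spry1 -0.55 ± 0.12 with an adjusted p of 0.144, each in the same direction on 3 of 3 days. Over the 10 alternative settings, the adjusted p of these 7 genes ranged from 0.0763, for Fgf11, to 0.767, for Spry2. Fgfr1 had an estimate of 0.00 ± 0.10. The signs were shared by all 3 days for 10 of the 27 genes: Fgf11, Fgf13, Spry2, Spred2, Spred3 and Dusp6 were higher each time and Fgf5, Fgf8, Fgf17 and Spry1 lower, which is 6 and 4 of 27 where 34.6% and 13.1% of all genes had such signs. A second limma fit tested whether the difference moved with day. None of the 27 genes passed, nor did any gene of the table; at an unadjusted p below 0.05, 4 had a difference that moved upward with day (Fgf15, Fgf4, Fgf17 and Etv4) and none downward, against 3.44% and 9.68% of all genes.

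**Figure D4:**
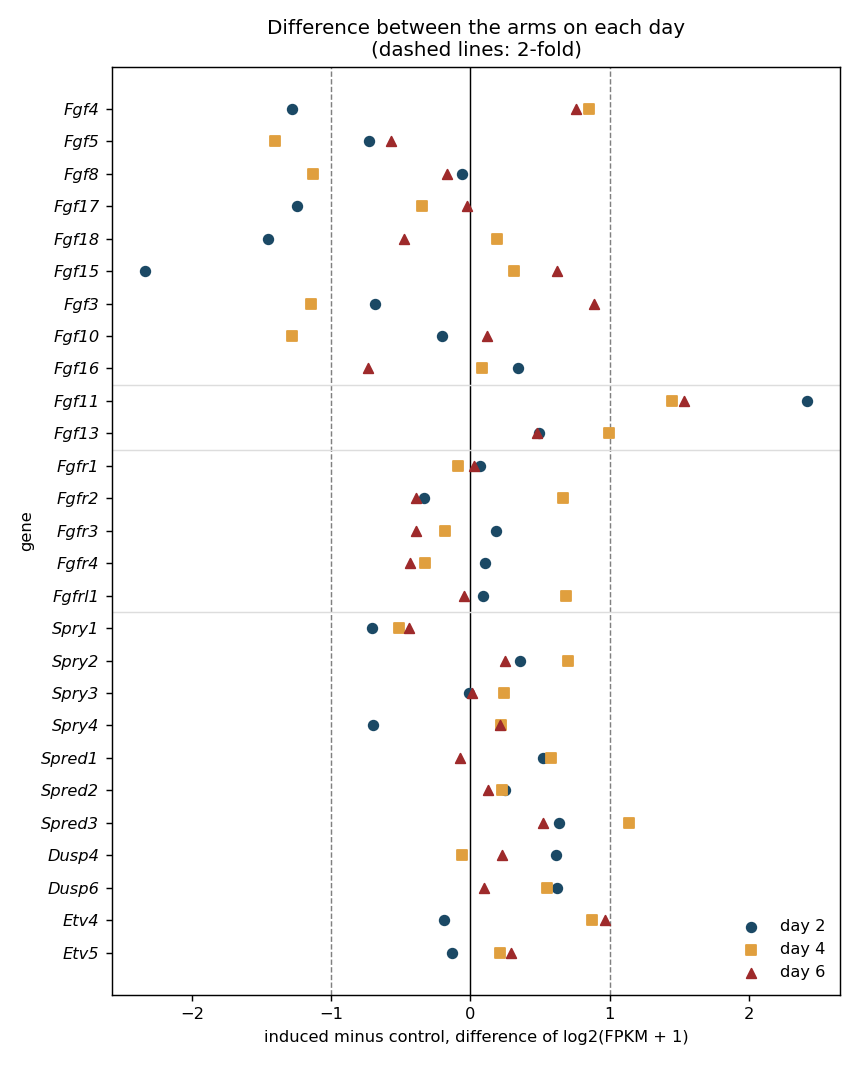
Points give the difference of log2(FPKM + 1), induced minus control, for the 27 genes that reached 1 FPKM, with circles for day 2, squares for day 4 and triangles for day 6 and dashed lines at 2-fold. Ligands spread from -2.34 to 0.89, the Fgf11 points lie right of the 2-fold line on all 3 days, and the receptors lie between the dashed lines.

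Other genes of the pathway were taken from a list of 69 co-receptors, heparan sulphate enzymes and proteoglycans, adaptors, kinases, negative regulators and transcriptional readouts, all of them measured. At least 2-fold higher were 8 of 64 counted genes at day 2, 4 of 65 at day 4 and none of 65 at day 6, and 1, 1 and none were lower. The background for these counts is that given above for all genes, 9.72%, 6.09% and 3.37% higher and 1.83%, 2.11% and 2.1% lower. The list medians were 0.24, 0.06 and -0.12, beside 0.17, 0.10 and 0.06 over all counted genes. None of the 14 genes of the cascade from Ras to the ERK targets Rps6ka1 to Rps6ka3 differed 2-fold in FPKM + 1 on any day. Shisa3, whose relatives retain FGF receptors in the endoplasmic reticulum, was at 0.837, 0.598 and 1.67 FPKM in control and at 62.3, 14.8 and 2.14 FPKM in induced cells. Egr1, an immediate early gene induced by ERK, was at 4.80, 12.0 and 9.39 FPKM in control and at 28.9, 58.6 and 13.4 FPKM in induced cells. Both were at least 2-fold higher at days 2 and 4 and within 2-fold at day 6. Fos, Junb and Phlda1, further readouts of the cascade, were 2-fold higher at day 2 alone, with differences of 1.66, 1.88 and 1.03, and Egr2 at day 4 alone, with 1.20. Among the readouts, 4 of 10 counted were 2-fold higher at day 2, 2 of 11 at day 4 and 0 of 10 at day 6. In the same group of readouts Phlda1 differed by -0.99 at day 6, and Myc, a growth regulator downstream of ERK, was lower in induced cells on each day without passing 2-fold (-0.88, -0.75 and -0.69). Dusp9, an ERK phosphatase of pluripotent cells, was at 81.8 FPKM in the control library of day 2 and at 32.4 in the induced one. It was lower with induction on each day (-1.31, -0.38 and -0.25). So were Dusp2 (-0.96, -0.81 and -0.63), Dusp5 (-0.66, -0.43 and -0.66) and Dusp7 (-0.25, -0.41 and -0.80), without passing 2-fold. The other listed Dusp genes, Dusp1 (-0.30, 0.01 and -0.38) and Dusp14 (0.95, -0.003 and -0.32), differed in sign between days. Gpc3, a heparan sulphate proteoglycan, had 12.6 and 122 FPKM on control days 2 and 4, and 59.2 and 51.7 FPKM on the induced days, so its direction was opposite on these days.

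Oct6 binding was read from the authors' deposited list of 7979 peaks, each 133 bp wide, in coordinates of mm9, which is the NCBIM37 assembly. A gene was counted as near a peak when the peak's centre lay within 10 kb of the start of any of its annotated transcripts. Of 37 genes matched to the annotation (Spry3 had no start site there), 7 had a near peak, which is 18.9%, where 15.3% of all matched genes and 20.7% of those reaching 1 FPKM had one. The share over the whole group is therefore close to the background. The 7 were unevenly placed among the groups: 6 of 10 feedback genes (60%), 1 of 5 receptors (20%), and none of the 18 ligands or the 4 homologous factors. The groups were compared by these counts alone.

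For each gene with a near peak only the nearest peak is shown, because it lies by the start of a gene that reports ERK activity, or by an FGF receptor. That of Spry4 lies in an intron 6497 bp downstream of a start site and is not printed. Sequences are those of the reference plus strand, 5′ to 3′, and capitals mark any match to the POU octamer ATGCAAAT, to ATGCTAAT, to ATGCAT or to the SOX motifs ACAAAG and ACAATG, on either strand.
Dusp6, chr10:98724059-98724191: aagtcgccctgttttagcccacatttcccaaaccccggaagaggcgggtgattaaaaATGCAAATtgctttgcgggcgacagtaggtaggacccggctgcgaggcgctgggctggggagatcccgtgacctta
Spry2, chr14:106297075-106297207: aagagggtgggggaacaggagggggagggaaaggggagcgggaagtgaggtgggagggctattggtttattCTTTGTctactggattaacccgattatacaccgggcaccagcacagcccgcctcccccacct
Spred1, chr2:116946231-116946363: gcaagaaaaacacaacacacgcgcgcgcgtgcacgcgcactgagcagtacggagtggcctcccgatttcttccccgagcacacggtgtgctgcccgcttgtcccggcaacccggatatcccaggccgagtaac
Spred2, chr11:19820486-19820618: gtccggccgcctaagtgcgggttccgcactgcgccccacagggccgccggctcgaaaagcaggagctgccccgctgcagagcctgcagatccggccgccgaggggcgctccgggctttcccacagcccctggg
Etv5, chr16:22439881-22440013: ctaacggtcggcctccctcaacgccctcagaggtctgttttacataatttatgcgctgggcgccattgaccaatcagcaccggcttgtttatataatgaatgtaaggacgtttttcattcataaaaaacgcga
Fgfr2, chr7:137401753-137401885: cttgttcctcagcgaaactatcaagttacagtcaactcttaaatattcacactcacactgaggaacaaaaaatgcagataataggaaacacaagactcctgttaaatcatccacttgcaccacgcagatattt

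The Etv5 peak was centred 155 bp upstream of the gene's start, the Spred1 peak 813 bp upstream, the Spry2 peak 1105 bp upstream, the Dusp6 peak 1740 bp upstream and the Spred2 peak 3826 bp upstream. Spry2 had 2 further peaks within 10 kb, 1725 and 2789 bp downstream of its start inside the gene, with scores of 16.5 and 15.2. These 2 are not printed and are not among the printed peaks whose motifs are given below. The 5 peaks upstream of starts lay between annotated genes, and for each the nearest start of a protein-coding gene was that of the named gene. The Fgfr2 peak lay in an intron 3552 bp downstream of the start of 1 annotated transcript, and it was lost when the start of the gene alone was used. In this annotation the gene spans 137305965 to 140315033 on the minus strand, so that start lies far from the peak. The scores of the nearest peaks were 13.9 for Spry2, 12.7 for Fgfr2 and Spred2, 11.4 for Dusp6 and Spred1 and 10.1 for Etv5 and Spry4, where the median of the list was 11.4 and the highest value 145.6. Scores are the authors' own values. With peaks at or above the median score, 5 of the 7 genes kept a near peak, and Etv5 and Spry4 did not. These 5 are 13.5% of the 37 matched genes, against 9.25% of all matched genes and 12.5% of those reaching 1 FPKM. One of the 6 printed peaks, that of Dusp6, held the octamer ATGCAAAT, which 4.19% of all placed peaks held, and 1, that of Spry2, held ACAAAG (8.55%). No full match to ATGCTAAT or ATGCAT was in these 6, while 2.1% and 19.5% of all peaks held one. The Spry4 peak, not printed, held 1 match to a POU motif.

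Beyond 10 kb, the nearest peak of Fgfr1 lay in its intron 11.3 kb downstream of a start site, those of Fgf1 and Fgf7 lay in introns 12.0 and 12.4 kb downstream, and that of Fgf13 lay in an intron 27.8 kb downstream. Those of Fgf18 and Fgf17 lay 15.6 and 16.8 kb upstream, but nearer to the coding starts of Npm1 (62 bp) and Npm2 (5974 bp). For Fgf10 and Fgf2 the distances were 33.2 kb upstream and 33.8 kb downstream. Those of Fgf22, Etv4, Fgf8, Fgfr3 and Spred3 lay 62.3 to 97.5 kb away. The peak of highest score within 100 kb of any of these genes was 42.6 kb downstream of the start of Fgf11 (chr11:69572556-69572688, score 22.8, a value reached by 2.03% of peaks). It is shown because Fgf11 had the widest separation between the arms, but the nearest start of a coding gene was that of Polr2a, at 483 bp.
Peak nearest Fgf11: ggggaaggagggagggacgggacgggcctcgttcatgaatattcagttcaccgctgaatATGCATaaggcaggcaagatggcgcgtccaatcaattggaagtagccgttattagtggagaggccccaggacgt
It held ATGCAT once. Fgf3, Fgf4 and Fgf15, neighbours on chromosome 7, had no peak within 100 kb, and neither had Fgf5, Spry1, Dusp4 or Fgfrl1. Within 100 kb, 21 of the 37 genes (56.8%) had a peak, against 51% of all matched genes and 58.9% of those reaching 1 FPKM.

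**Figure D5:**
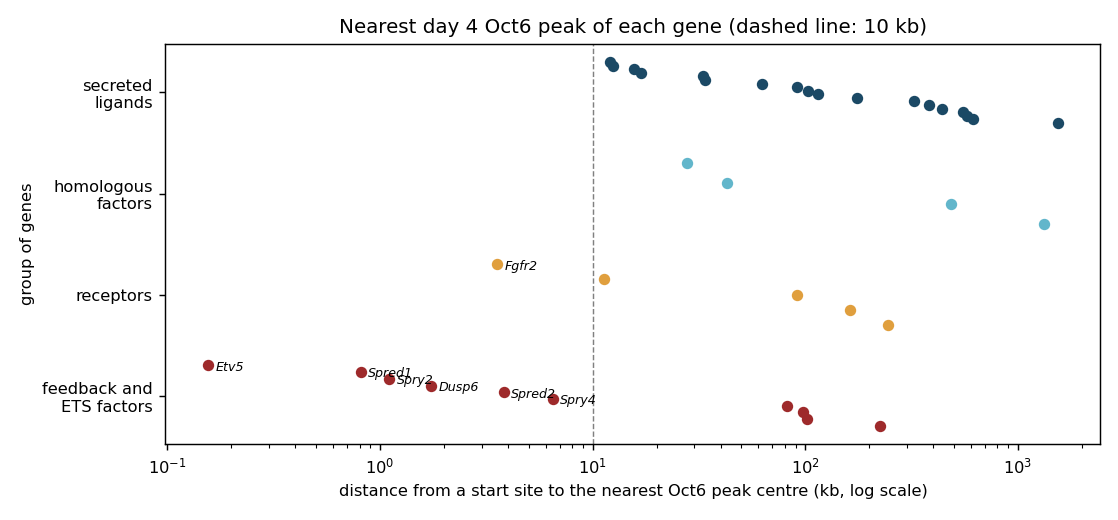
Each point is 1 gene, placed by the distance in kb, on a log scale, from any of its transcript starts to the centre of the nearest day 4 Oct6 peak, in 4 rows by group. Left of the dashed line at 10 kb lie 6 feedback genes and Fgfr2, and no ligand.

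At day 4, the day number of the binding data, the 7 genes with a near peak were all higher in induced cells, by 0.21 (Etv5) to 0.70 (Spry2) with a median of 0.55, and none passed 2-fold. Of all counted genes 61.8% were higher at day 4, as were 65.8% of the genes with a near peak, whose median was 0.13, and 60.5% of those without, whose median was 0.09. The 7 remained above 0 after median ratio scaling and after quantile normalisation, where 50% and 47.7% of all genes were. The same 7 genes were higher in 4 cases at day 2 and in 5 cases at day 6, where 63.8% and 59.3% of all genes were, with medians of 0.25 and 0.13. Among the 4 matched feedback genes without a near peak, 2 were higher at day 4, Spred3 by 1.14 and Etv4 by 0.88, and 2 were lower, Dusp4 by 0.06 and Spry1 by 0.51 on the log2 scale. The day 4 median was 0.41 in these 4 genes and 0.39 in the 6 feedback genes with a near peak, so the medians were alike.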

How the data were processed

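The authors deposited FPKM values per gene symbol and library and a peak list with a score per peak. The submitters' processing notes name HOMER, Cuffdiff, Cufflinks 1.3.0, TopHat 1.4.1 and the build mm9. Strandedness and multi-mapping reads are not described in the sources used here. Overlapping and antisense genes are therefore uncertain. Values were taken as log2(FPKM + 1), which understates folds of weak genes. Library depth was estimated from the most frequent ratio of values below 0.3 FPKM between libraries and from annotated transcript lengths. limma 3.58.1 in R 4.3.3 (lmFit, eBayes with trend, 2 residual degrees of freedom, 1 for the trend with day, two-sided) was run on genes reaching 1 FPKM in any library and was tested on simulated data. Start sites and sequence came from GENCODE and the NCBIM37 genome, which matched 95.7% of symbols; 14 peaks outside the reference chromosomes were left out. Promoters of 300 bases came from RefSeq (GRCm38.p6).

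The genes, lists and tests were chosen with earlier results of these data known. Values are given per library for genes at least 2-fold different on any day and for a fixed set of receptors, feedback genes and ligands; up to 8 pathway genes at least 2-fold different in 1 direction on at least 2 days were to be named, and 2 met that rule. The other pathway genes, the genes of the chromosome 7 neighbourhood and Fgf12 were named after their values were seen. The labels do not say that libraries are separate cultures. Alternatives were another pseudocount, filter, scaling, fold, day set, peak distance, start site and score minimum. Python 3.11.15, numpy 2.4.6, pandas 2.3.3 and matplotlib 3.10.9 were used.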

Additional observations from a re-analysis of the deposited data

Results flagged for a closer look

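For 3 ligands the difference between the arms had opposite signs on different days, at least 2-fold on one and at least 1.5-fold the other way on another. The gap between the lowest and the highest daily difference of log2(FPKM + 1) was 2.96 for Fgf15, 2.14 for Fgf4 and 2.03 for Fgf3. Within a day each value rests on 1 library per arm. In limma's test of a trend with day the adjusted p was 0.228 for Fgf15, 0.311 for Fgf4 and 0.449 for Fgf3.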

How the results depend on the processing

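Of 136 recomputed counts 109 stayed within 1.5 times their value, and in 250 recomputations of the single-gene differences that were called at 2-fold or at an unadjusted p below 0.05 none changed sign. Differences near 0 did: with scaling, the day 2 differences of Fgfr1, Fgfr3, Fgfr4 and Fgfrl1 and the day 6 difference of Fgfr1 turned negative under at least 1 of the scalings. Many of the recomputations could not change a sign. Another pseudocount, filter or fold leaves the sign of a difference between 2 libraries as it was. Another filter, no day term or eBayes without trend leaves a limma estimate as it was. Those recomputations carry no information on direction. A 1.5-fold threshold gave 4 higher and 8 lower genes at day 2, 8 higher at day 4, and 5 higher and 1 lower at day 6. A pseudocount of 0.1 gave 4 higher at day 4, and 3 higher and 1 lower at day 6, and a filter of 5 FPKM left 0 at day 6. Between days, that pseudocount gave 5 lower in control from day 4 to day 6, 6 higher in induced from day 2 to day 4, and 7 lower in induced from day 4 to day 6, where median ratio scaling gave 4 and quantile normalisation 6. The shares of all genes were not counted beside these moved counts, and a lower threshold or pseudocount can add calls in any gene. The moved counts therefore carry no result about the genes described here. In limma's fit over the days, none of the genes described here passed under any setting. Of all genes, the 2 higher calls became 0 with a pseudocount of 0.1, without a filter, with a filter of 5 FPKM and without day 4, 10 after quantile normalisation, 41 without day 2 and 40 without day 6. The 1 lower call became 0 without a filter, 7 after quantile normalisation, 16 without day 2 and 4 without day 6. The cause was not tested. A distance of 50 kb gave 16 of 37 genes with a peak (43.2%), against 34.6% of all matched genes and 42.2% of those reaching 1 FPKM. A distance of 100 kb gave 21 genes, whose share is given above beside the background. Libraries were paired by day, the block of the limma fit, and carry no other replicate number; without the day term the calls over all genes were again 2 higher and 1 lower in number. One library per arm and day limits every daily value, and depth limits the 11 genes below 1 FPKM.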

Other observations

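Fgf3, Fgf4 and Fgf15, whose differences were at least 2-fold on one day and at least 1.5-fold the other way on another, lie side by side on the plus strand of chromosome 7, within 62.9 kb (mm9, 152023988 to 152086858). At day 6 each was higher in the induced library and at day 2 each was lower. Their neighbour Ccnd1, the gene of cyclin D1 (152115836 to 152125774, minus strand), was at 50.2, 26.8 and 23.8 FPKM in control and 39.3, 31.9 and 40.2 FPKM in induced cells, with differences of -0.34, 0.24 and 0.74. The order of signs was that of Fgf4 and Fgf15. Oraov1, between Fgf15 and Ccnd1, differed by 0.39, 0.36 and 0.08, and Ano1, on the other side of Fgf3, was below 1 FPKM in both arms at days 2 and 4 and at 3.14 and 1.85 FPKM at day 6. This neighbourhood was picked after the values were seen and was not tested.

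RefSeq promoters of 300 bases were matched for 27 of the 38 genes (35 promoters). The octamer ATGCAAAT was in 1 of them, that of Fgf12 (2.86%, against 1.74% of all promoters), and neither ATGCTAAT nor ATGCAT was in any (0.919% and 5.04% of all promoters).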
